A study of Homo sapiens with 9 samples.

Results

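The genes described here are the subunits of the hypoxia-inducible factors (HIF) and 2 of their direct regulators: HIF1A, EPAS1, HIF3A, ARNT, ARNT2, VHL and CITED2. They were taken by name, as a family of which earlier results in these data were known, and all 7 are among the 27315 gene rows of the deposited table. Of the 7, 6 were expressed highly enough to be tested, among 13165 genes tested in all, and HIF3A was not. The RNA came from MDA-MB-468, an established human cell line of triple-negative breast cancer. The 9 libraries of polyadenylated RNA form 3 groups of 3: cells with the BBOX1 hairpin sh1, cells with the BBOX1 hairpin sh6 and cells with a scrambled control hairpin. All 3 groups, the controls included, carried a lentiviral hairpin and had been selected for it, and all were grown at 37°C in a CO2 incubator, with no low-oxygen step named in the labels. BBOX1 is gamma-butyrobetaine hydroxylase, the last enzyme of carnitine synthesis and, like the HIF hydroxylases, a dioxygenase that uses 2-oxoglutarate. The protocol gives target sequences for hairpins named sh1 and sh2 and none for a hairpin named sh6. All libraries come from 1 line. The labels speak of triplicates without saying whether cultures were separate, so a p-value here reflects the spread among libraries alone, which may be technical. In such bulk RNA, fewer cells that express a gene and less RNA per cell cannot be told apart.

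A HIF is a pair of proteins, an alpha subunit that answers to oxygen and a beta subunit that is always present. In oxygen the alpha subunit is hydroxylated on prolines, bound by VHL and degraded, while in low oxygen it lasts, pairs with the beta subunit and switches on genes for glycolysis, blood vessel growth and cell survival. Most of this control acts on the protein, so the RNA values here are levels of the transcripts and say nothing of the amount of HIF protein. HIF1A and EPAS1 encode the main alpha subunits (HIF-1 alpha and HIF-2 alpha), HIF3A a relative with inhibitory isoforms, and ARNT and ARNT2 the beta subunits. CITED2 encodes a protein that competes with HIF-1 alpha for the coactivators EP300 and CREBBP, and is itself known to be induced by HIF.

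Promoter sequences are shown for members whose transcripts moved in different directions, to let their HIF-type motifs be seen side by side. Of the 7 genes, 5 (HIF1A, EPAS1, HIF3A, ARNT and CITED2) had a window in the RefSeq promoter table (GRCh38.p14) and ARNT2 and VHL are named only. Each sequence gives the 250 bases before the annotated start of the gene, 5′ to 3′ on the gene's strand. Capitals mark the letters ACGTG or GCGTG, the core words of the hypoxia response element, searched on both strands.
CITED2 (chr6:139374649-139374898, minus strand): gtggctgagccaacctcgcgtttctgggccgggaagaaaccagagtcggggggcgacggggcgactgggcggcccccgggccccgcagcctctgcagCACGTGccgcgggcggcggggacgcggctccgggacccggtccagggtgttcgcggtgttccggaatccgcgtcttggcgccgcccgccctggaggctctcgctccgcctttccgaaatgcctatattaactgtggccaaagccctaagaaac
HIF1A (chr14:61695263-61695512, plus strand): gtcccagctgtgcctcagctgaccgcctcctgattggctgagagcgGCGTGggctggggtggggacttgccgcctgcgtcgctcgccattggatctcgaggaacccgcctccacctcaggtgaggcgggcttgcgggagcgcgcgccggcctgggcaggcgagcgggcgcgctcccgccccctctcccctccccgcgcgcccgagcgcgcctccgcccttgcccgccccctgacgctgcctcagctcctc
EPAS1 (chr2:46297157-46297406, plus strand): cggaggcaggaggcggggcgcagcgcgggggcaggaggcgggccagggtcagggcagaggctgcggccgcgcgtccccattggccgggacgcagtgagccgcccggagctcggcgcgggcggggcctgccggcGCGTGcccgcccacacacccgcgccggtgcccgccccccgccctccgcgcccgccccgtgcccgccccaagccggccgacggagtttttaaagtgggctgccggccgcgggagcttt
ARNT (chr1:150876600-150876849, minus strand): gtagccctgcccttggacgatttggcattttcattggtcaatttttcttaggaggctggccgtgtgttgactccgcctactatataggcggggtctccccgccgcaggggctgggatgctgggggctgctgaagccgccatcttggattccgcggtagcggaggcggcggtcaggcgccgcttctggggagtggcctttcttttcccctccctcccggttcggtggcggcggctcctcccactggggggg

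The CITED2 window held the word ACGTG on both strands at 1 place, as the palindrome CACGTG, which is also the E-box letters read by other basic helix-loop-helix proteins. It lay 153 to 148 bases before the start. The HIF1A and EPAS1 windows each held GCGTG once, 204 to 200 and 117 to 113 bases before the start, and the ARNT window held neither word. The HIF3A window, not printed, held GCGTG 3 times. Among 24884 genes with such a window, 18.7% held ACGTG and 31.8% held GCGTG. Of the 19 windows of a list of HIF-induced genes described below, 10 held ACGTG and 9 held GCGTG. These matches describe letters only, and the 4 windows printed are 64.4% to 80.8% G and C.

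Levels are given as normalised counts, which were obtained by inverting the authors' transformation, and fold changes are ratios of group means of these counts. Log2 changes come from limma on the deposited scale, which understates changes of weakly expressed genes, and the threshold for a call was an adjusted p of 0.05. Depths were 15737760 to 16214909 recovered reads per library with sh1, 16053022 to 18867482 with sh6 and 16724830 to 19732986 with the control hairpin. The hairpins lowered their target: BBOX1 had normalised counts of 324 to 346 in sh1 libraries and 581 to 618 in sh6 libraries, against 2360 to 2785 in control libraries. The line carried its own markers, though their levels differed between groups. EGFR was at 57445 to 59700 normalised counts with sh1 and 42134 to 44979 with sh6, against 54391 to 56476 in controls. KRT5 was at 10409 to 11004 with sh1 and 12288 to 12805 with sh6, against 6954 to 7302 in controls. The progesterone receptor PGR was at 0 in all libraries. The oestrogen receptor ESR1 was at 226 to 255 with sh1 and 97 to 116 with sh6, against 211 to 253 in controls. The 4 fibroblast markers summed to 285 to 351 counts with sh1 and 313 to 394 with sh6, against 322 to 443 in controls. COL1A1 made up most of these sums and was called lower with sh1 (-0.25, adjusted p = 0.0207 by limma) but not with sh6 (-0.15, adjusted p = 0.159). The leucocyte markers summed to 73.6 to 91.6 counts with sh1 and 131 to 138 with sh6, against 197 to 225 in controls. Among them PTPRC did not pass 5.02 in any library, and CD68 made up most of the sum. The 3 endothelial markers summed to 11.3 to 18.9 with sh1 and 9.6 to 11.9 with sh6, against 24.6 to 32.8 in controls. Of these PECAM1 fell, with means of 6.03 with sh1 and 5.6 with sh6, against 24.6 in controls. CDH5 went the other way (5.69 and 4.78, against 3.63), and VWF was at 2.35 and 0.35, against 1.62. The part of these markers in the results was not tested.

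The calls among the members have to be read against a very large background. With sh1, 58.9% of all genes tested were called against the control (29.0% higher and 30.0% lower). With sh6 it was 67.8% (34.2% higher and 33.6% lower), for the mean of both hairpins 65.5%, and between sh6 and sh1 59.7% (30.8% higher in sh6 and 28.9% lower). With sh1, 4 of the 6 tested members were called higher (EPAS1, ARNT2, VHL and CITED2) and 2 lower (HIF1A and ARNT). With sh6, 3 were called higher (ARNT2, VHL and CITED2), 1 lower (HIF1A) and 2 were not called. ARNT2 passed the filter on low values only through the hairpin groups. Its place in these counts and in the medians below is thus not independent of the filter. Both comparisons use the same 3 control libraries. The share of all genes tested whose libraries did not overlap between groups was not counted. Where libraries of members are said below not to overlap, this is a description and does not set them apart. The median log2 change of the 6 was 0.36 with sh1 and 0.10 with sh6, beside 0.00 and 0.01 over all genes tested. The median absolute log2 change over all genes was 0.22 with sh1 and 0.28 with sh6, while the members' changes on this deposited scale reached 0.57 in size (VHL with sh6). By ratio of counts, ARNT2 changed most among the 6, as given below. The log2 changes of the members stood between the percentiles 20.6 and 91.6 of all genes tested with sh1 and between 31.9 and 91.5 with sh6.

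**Figure D1:**
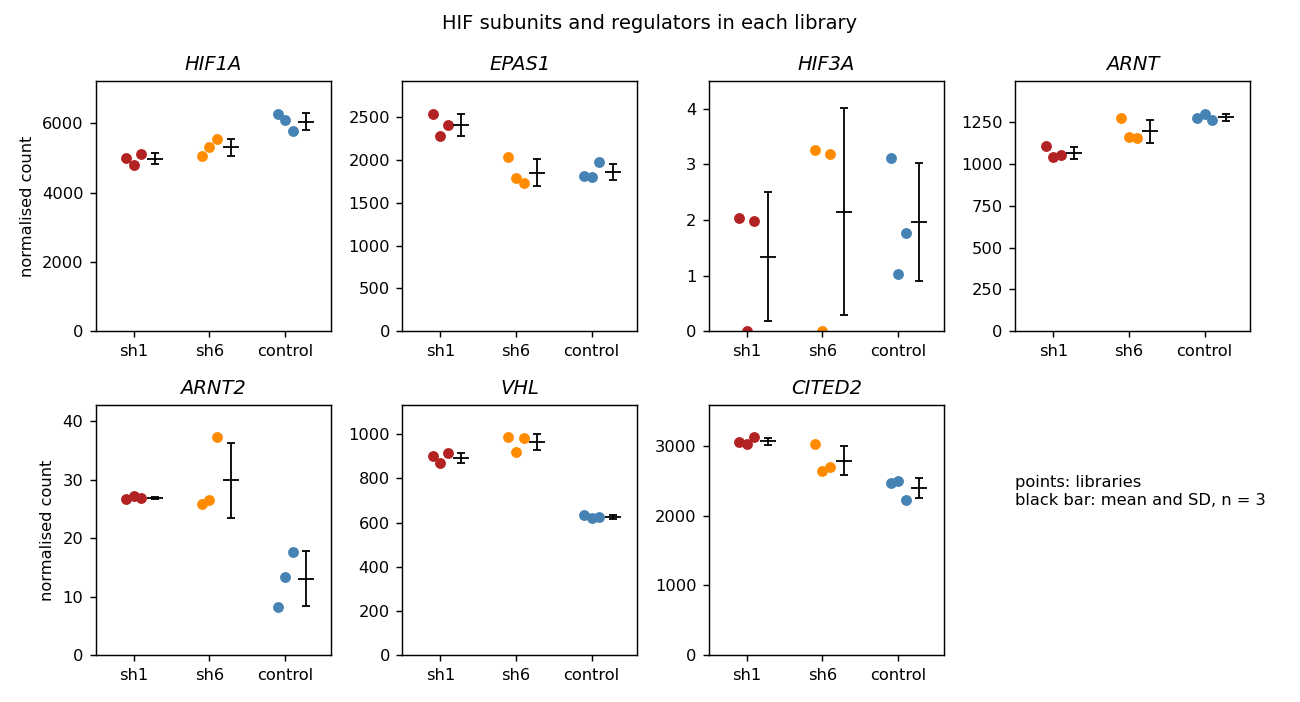
Normalised count (vertical axis, from 0) of each of the 7 genes in the 3 libraries of sh1, sh6 and the control, with the group mean and SD (n = 3) as a black bar. All 6 hairpin libraries lie below the controls for HIF1A and above them for ARNT2, VHL and CITED2, while EPAS1 is raised with sh1 and overlaps the controls with sh6. How many of all genes tested separate in this way was not counted.

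HIF1A, the alpha subunit of the factor that drives most glycolytic hypoxia genes, was lower with both hairpins. Its normalised counts were 5008, 4806 and 5113 in sh1 libraries and 5068, 5308 and 5541 in sh6 libraries, against 6279, 6099.9 and 5777 in control libraries. The 6 hairpin libraries all lay below the 3 controls, and those of sh1 and sh6 overlapped each other. The mean was 4976 ± 156 with sh1 and 5306 ± 237 with sh6, against 6052 ± 254 in controls (SD, n = 3 each), 1.22-fold and 1.14-fold lower. On the log2 scale the fall of HIF1A was called for both hairpins. It fell by 0.28 with sh1 (95% interval -0.39 to -0.17, adjusted p = 3.6e-05), and for sh6 it fell by 0.19 (95% interval -0.30 to -0.08, adjusted p = 0.0023). With quantile-normalised libraries the change with sh1 was -0.12, under the value on the deposited scale but still called (adjusted p = 0.0435). The difference between sh6 and sh1 was 0.09 (95% interval -0.02 to 0.20, adjusted p = 0.136) and was not called.

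2 antisense RNAs named after HIF1A stand in the table. HIF1A-AS2 had 132 to 200 normalised counts with sh1 and 166 to 207 with sh6, against 218 to 223 in controls. With sh1 its log2 change was -0.32 (adjusted p = 0.0045), and its change of -0.20 with sh6 was not called (adjusted p = 0.0602). HIF1A-AS1 had at most 8.57 normalised counts and was not tested. No source used here says whether reads were counted by strand, and without strand an antisense RNA that overlaps HIF1A cannot be told apart from it. In GENCODE release 29, HIF1A shares 117 exon bases with HIF1A-AS1 on the other strand. ARNT2 shares 75 and 139 exon bases with the antisense genes AC108451.1 and AC108451.2, and HIF3A shares 277 with AC007193.2, which are not rows analysed here, so the same limit holds for the few reads of ARNT2 and HIF3A. HIF1A had 4712 to 6557 recovered reads per library and HIF1A-AS2 131 to 253. No shared exon bases were listed for HIF1A-AS2 by that name in this release. The annotation that the authors counted with was not searched, so whether HIF1A-AS2 overlaps HIF1A there is not settled.

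EPAS1 differed between the hairpins more than any other member. It encodes HIF-2 alpha, which favours targets in vessel growth, iron handling and growth control over glycolysis. The normalised counts were 2540.5, 2276 and 2412 in sh1 libraries and 2036, 1785 and 1734 in sh6 libraries, against 1814, 1802 and 1972 in control libraries. All sh1 libraries were above all libraries of the other groups, while sh6 and control libraries overlapped. The mean was 2409 ± 132 with sh1 and 1852 ± 161 with sh6, against 1863 ± 95.1 in controls (SD, n = 3 each). EPAS1 rose by 0.36 on the log2 scale with sh1 (SE 0.061, adjusted p = 8.3e-06), a 1.29-fold rise. The change with sh6 was -0.01 (95% interval -0.14 to 0.11, adjusted p = 0.887). The direct test of sh6 against sh1 gave -0.37 (SE 0.061, adjusted p = 5.4e-06), with sh6 1.30-fold lower. The mean of both hairpins, a log2 rise of 0.17 (adjusted p = 0.0048), was also called, and joins these 2 unlike values.

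HIF3A, whose isoforms can hold the other alpha subunits in check, was near the limit of detection. It had 2, 0 and 2 recovered reads in sh1 libraries and 3, 0 and 3 in sh6 libraries, against 3, 1 and 2 in control libraries. No library passed 3 reads, the number that a count of 0 allows by counting error alone, so no fold is given. Without the filter on low values, limma gave a log2 change of -0.11 with sh1 (95% interval -0.36 to 0.145, adjusted p = 0.549) and -0.04 with sh6 (95% interval -0.30 to 0.21, adjusted p = 0.809). No difference in HIF3A was detected, and the deposited scale compresses changes at such counts.

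Within each library the 2 main alpha subunits were set against each other by subtracting the log2 value of HIF1A from that of EPAS1. The difference was -0.96, -1.06 and -1.06 in sh1 libraries and -1.29, -1.54 and -1.64 in sh6 libraries, against -1.76, -1.72 and -1.52 in control libraries. It was thus shifted towards EPAS1 in every sh1 library, while sh6 and control libraries overlapped. The group means were -1.03 ± 0.057 with sh1 and -1.49 ± 0.18 with sh6, against -1.67 ± 0.13 in controls (SD, n = 3 each). By exact permutation of the library labels, two-sided and with 0.1 as the smallest p that 3 against 3 allows, the test gave p = 0.1 for sh1 against the control (a shift of 0.64), 0.3 for sh6 against the control (0.18) and 0.1 for sh6 against sh1 (-0.46). With all 6 hairpin libraries against the 3 controls the shift was 0.41 (exact permutation p = 0.0714). Adjusted over these 4 tests, the p values were 0.133, 0.3, 0.133 and 0.133, so none passed 0.05. Per length of exons, EPAS1 made up 25.5 ± 0.78% of the sum of both transcripts with sh1 and 19.8 ± 2.1% with sh6, against 17.9 ± 1.4% in controls (SD, n = 3 each).

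**Figure D2:**
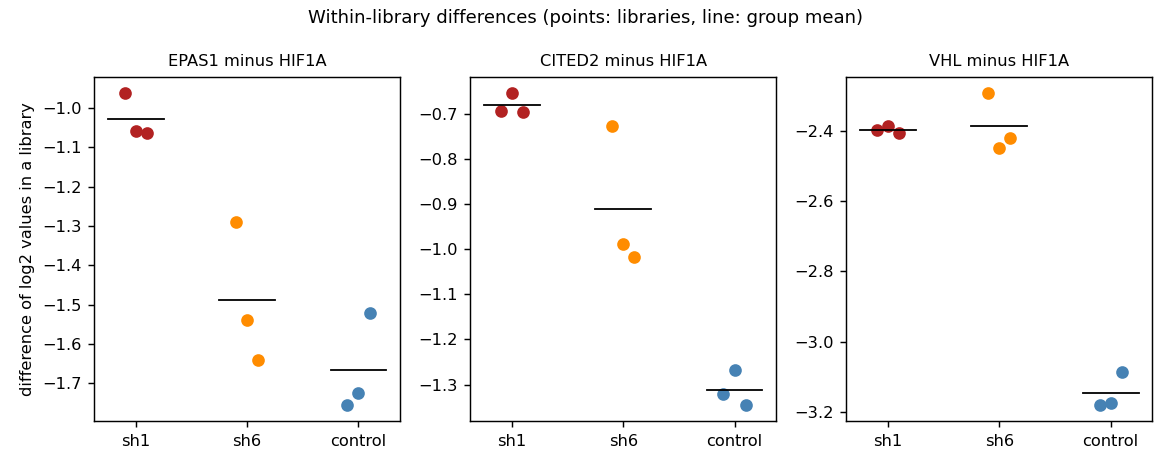
Difference of the log2 values of 2 genes within each library (vertical axes, which differ between panels), for EPAS1, CITED2 and VHL each minus HIF1A, in sh1, sh6 and control libraries, with the group mean as a line. EPAS1 minus HIF1A separates sh1 from the other groups, whereas CITED2 minus HIF1A and VHL minus HIF1A are higher in all 6 hairpin libraries than in the 3 controls.

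ARNT, the beta subunit that pairs with every HIF alpha subunit and with the aryl hydrocarbon receptor, was lower with sh1. The normalised counts were 1107, 1040.03 and 1057 in sh1 libraries and 1277, 1159.95 and 1156 in sh6 libraries, against 1273, 1302 and 1263 in control libraries. The sh1 libraries lay below all others, and in sh6 replicate 1 lay among the controls while the other 2 libraries lay below them. ARNT fell by 0.25 on the log2 scale with sh1 (SE 0.059, adjusted p = 0.00056), 1.20-fold. With sh6 the change was -0.09 (95% interval -0.21 to 0.03, adjusted p = 0.165). It was called with sh6 when replicate 1 of sh6 was left out (-0.14, adjusted p = 0.0421) and with sample weights (-0.12, adjusted p = 0.0376). Between the hairpins ARNT was 0.16 higher with sh6 (SE 0.059, adjusted p = 0.0228), a call that was lost without sh1 replicate 2 (adjusted p = 0.0832), sh1 replicate 3 (0.0695) or sh6 replicate 1 (0.108).

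ARNT2, a beta subunit best known from the nervous system and kidney, was expressed at a very low level and was higher with both hairpins. It had 26.7, 27.1 and 26.8 normalised counts in sh1 libraries and 25.9, 26.5 and 37.25 in sh6 libraries, against 8.27, 13.3 and 17.6 in control libraries. The 6 hairpin libraries were all above the controls. The ratio of the means was 2.06 with sh1 and 2.29 with sh6. On the deposited scale ARNT2 rose by 0.38 with sh1 (SE 0.11, adjusted p = 0.0029) and by 0.44 with sh6 (SE 0.11, adjusted p = 0.00059). On the log2 of counts plus 1 the rises were 1.04 and 1.17 (adjusted p = 0.0022 and 0.00056). ARNT2 passed the filter on low values only through the hairpin groups, since its control mean of 13.1 counts was below the 16.2 needed, so its test is not independent of the filter. These values rest on 80 reads with sh1 and 88 with sh6, against 41 in the controls, over 3 libraries each. Per length of exons ARNT2 was 2.08 ± 0.081% of the sum of ARNT and ARNT2 with sh1 and 2.07 ± 0.51% with sh6, against 0.85 ± 0.31% in controls (SD, n = 3 each).

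VHL, the substrate receptor of the ubiquitin ligase that removes hydroxylated HIF alpha subunits, rose with both hairpins. The normalised counts were 899, 868 and 913 in sh1 libraries and 986, 921 and 984 in sh6 libraries, against 636, 619 and 625 in control libraries. Every hairpin library was above every control, and every sh6 library was above every sh1 library. The mean was 894 ± 22.8 with sh1 and 963 ± 37.0 with sh6, against 626 ± 8.5 in controls (SD, n = 3 each), 1.43-fold and 1.54-fold higher. VHL rose by 0.47 on the log2 scale with sh1 (SE 0.060, adjusted p = 6.7e-08) and by 0.57 with sh6 (SE 0.060, adjusted p = 9.7e-10). The difference between sh6 and sh1 was 0.10 (95% interval -0.02 to 0.22, adjusted p = 0.150) and was not called. Among all genes tested, the log2 change of VHL was above those of 91.6% with sh1 and 91.5% with sh6, the highest of the 6 members with either hairpin on the deposited scale. On the log2 of counts plus 1, VHL rose by 0.51 and 0.62, less than ARNT2. The retrogene copy VHLL is in the table and was at 0 in all 9 libraries.

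CITED2, the competitor for the HIF coactivators, rose with both hairpins. It had 3069.6, 3031 and 3131 normalised counts in sh1 libraries and 3034, 2645 and 2706 in sh6 libraries, against 2476, 2496 and 2234 in control libraries. All 6 hairpin libraries were above the controls, and sh6 replicate 1 lay among the sh1 libraries. The mean was 3077 ± 50.5 with sh1 and 2795 ± 209 with sh6, against 2402 ± 146 in controls (SD, n = 3 each), 1.28-fold and 1.16-fold higher. CITED2 rose by 0.35 with sh1 (SE 0.058, adjusted p = 5e-06) and by 0.21 with sh6 (SE 0.058, adjusted p = 0.0018). It was 0.14 lower with sh6 than with sh1 (log2 change -0.14, adjusted p = 0.0401), a call that was lost under several alternatives, with adjusted p values of 0.0042 to 0.198 when 1 library was left out.

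**Figure D3:**
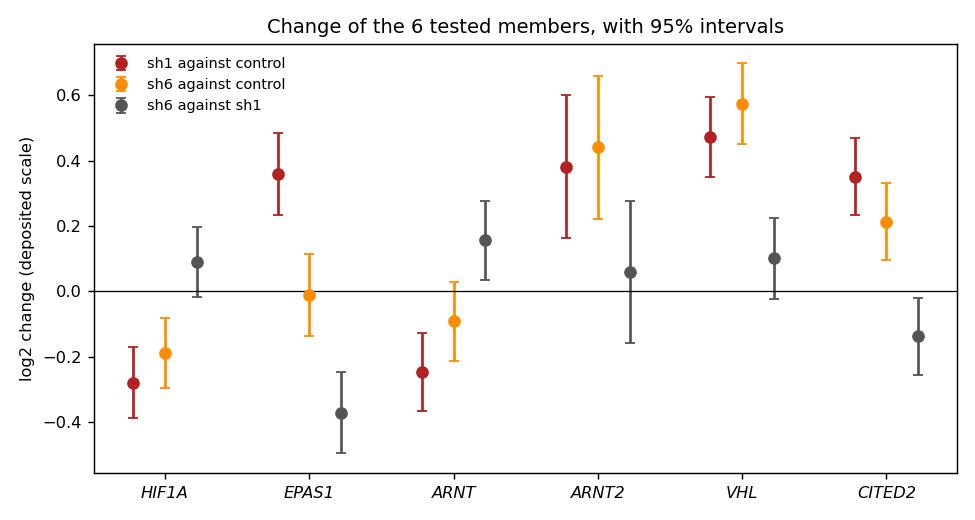
Log2 change on the deposited scale (vertical axis) of the 6 tested genes for sh1 against control, sh6 against control and sh6 against sh1, as points with 95% intervals from limma (n = 3 libraries a group). VHL has the highest points against the control (0.47 and 0.57), HIF1A lies below 0 with both hairpins, and EPAS1 has the largest difference between the hairpins (-0.37).

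Levels were compared between the genes only per length, as normalised counts per kilobase of the exons annotated in GENCODE release 29. CITED2 led in the hairpin groups, at 1214 ± 19.9 with sh1 and 1103 ± 82.5 with sh6, against 948 ± 57.5 in controls (SD, n = 3 each). HIF1A was at 966 ± 30.3 with sh1 and 1030.1 ± 45.9 with sh6, against 1175 ± 49.4 in controls, and so stood first in controls. With sh6 the ranges of CITED2 (1044 to 1197) and HIF1A (984 to 1076) overlapped. EPAS1 came next in every group, at 329.96 ± 18.1 with sh1 and 254 ± 22.1 with sh6, against 255 ± 13.0 in controls. ARNT and VHL changed places: VHL was at 212 ± 5.4 with sh1 and 229 ± 8.8 with sh6, against 149 ± 2.0 in controls, while ARNT was at 164 ± 5.3 and 184 ± 10.6, against 196 ± 3.1. The libraries of ARNT and VHL did not overlap within any group, and with sh6 the lowest EPAS1 library (237) was close to the highest VHL library (234). ARNT2 was at 3.47 ± 0.030 with sh1 and 3.86 ± 0.83 with sh6, against 1.69 ± 0.60 in controls, and HIF3A did not pass 0.39 in any library.

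**Figure D4:**
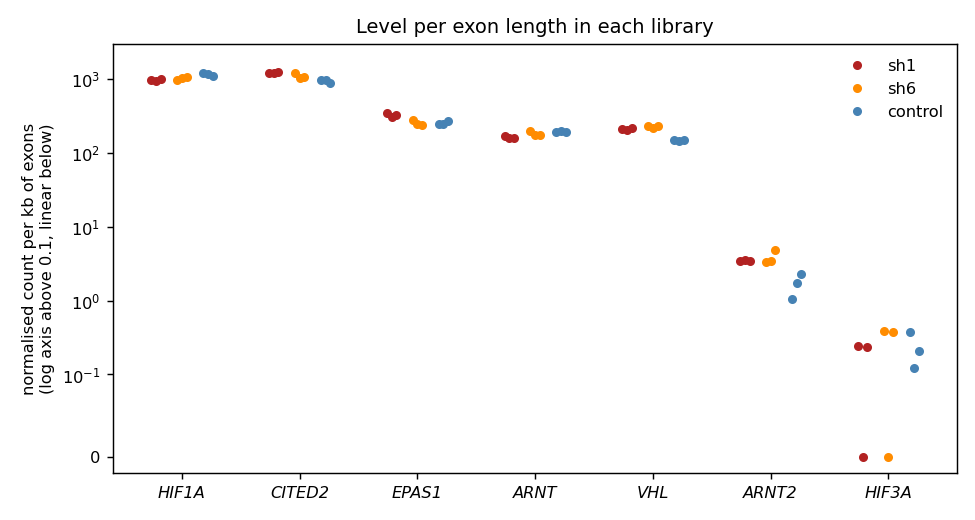
Normalised count per kilobase of annotated exons (vertical axis, logarithmic above 0.1 and linear below) of the 7 genes in each library, in the order of their control levels. HIF1A and CITED2 stand between 881 and 1235, EPAS1, ARNT and VHL between 147 and 348, ARNT2 between 1.07 and 4.81 and HIF3A at 0 to 0.39.

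The ratios of the regulators to HIF1A within a library moved more than the single genes. The log2 value of VHL minus that of HIF1A was -2.40 ± 0.010 with sh1 and -2.39 ± 0.085 with sh6, against -3.15 ± 0.054 in controls (SD, n = 3 each). CITED2 minus HIF1A was -0.68 ± 0.024 with sh1 and -0.91 ± 0.16 with sh6, against -1.31 ± 0.040 in controls. For both, the 6 hairpin libraries did not overlap with the controls. These differences restate the changes described above and were not tested again.

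The authors' deposited table also gives 1 log2 fold change and 1 adjusted p per gene for a comparison that it does not name. Over 13163 genes, its log2 fold change lay within 0.05 of the log2 ratio of the mean count of the 6 hairpin libraries to that of the 3 controls in 99.99%. For VHL the authors' deposited table gives 0.57 (adjusted p = 2.64e-13), for HIF1A -0.24 (0.00143), for CITED2 0.29 (0.00279) and for ARNT2 1.10 (0.00386). For ARNT it gives -0.18 (0.0861) and for EPAS1 0.19 (0.305) in the authors' deposited table, neither under 0.05, whereas limma called both for the mean of the hairpins (adjusted p = 0.0042 and 0.0048). The limma fit takes its spread within the 3 groups, so the gap between the hairpins is not part of it. How the authors' test treated that gap is not stated, so these adjusted p values may rest on unlike designs.

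Around the members stand genes of oxygen sensing and of the degradation of HIF alpha subunits, listed here together with HIF1AN, the chaperones HSP90AA1 and HSP90AB1 and the scaffold RACK1. Of 18 such genes, all tested, 3 were called higher and 8 lower with sh1, and 6 higher and 5 lower with sh6, with median log2 changes of -0.13 and -0.02. These 11 calls of 18 with each hairpin stand beside the 58.9% and 67.8% of all genes called, so the share is near the background. The second of these medians turned to 0.001 with median-centred libraries. With median-centred or quantile-normalised libraries 4 were called higher with sh1 in place of 3. With quantile-normalised libraries 7 were called higher with sh6 in place of 6. In the main fit, those called higher with sh1 were SIAH2, FBXW7 and SENP1, and those called lower with sh6 were EGLN1, EGLN3, ELOC, RBX1 and USP20. EGLN3 and EGLN1, prolyl hydroxylases that mark HIF alpha for VHL and are themselves induced by HIF, both fell. EGLN3 fell by 0.61 with sh1 and by 0.73 with sh6, to mean counts of 2081 and 1908, against 3211 in controls. EGLN1 fell by 0.21 and 0.58. The related hydroxylase EGLN2 rose by 0.30 with sh6 (adjusted p = 0.00042) and was at -0.10 with sh1, not called (adjusted p = 0.210). Of the partners of VHL in its ligase, the adaptor ELOC fell by 0.26 with sh1 and by 0.27 with sh6 and the RING subunit RBX1 by 0.21 and 0.34. The adaptor ELOB fell by 0.32 with sh1 (adjusted p = 0.0017) and was at 0.03 with sh6 (adjusted p = 0.790), and the scaffold CUL2 was at -0.09 and 0.01, not called (adjusted p = 0.231 and 0.899). SENP1, a protease that removes SUMO from HIF-1 alpha, rose by 0.47 and 0.70, and the ligase receptor FBXW7 by 0.21 and 0.25.

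HIF1AN, the asparagine hydroxylase that blocks the binding of EP300 and CREBBP to HIF alpha, went apart between the hairpins. Its mean count was 585 with sh1 and 969 with sh6, against 777 in controls, a fall by 0.38 (adjusted p = 6.3e-06) and a rise of 0.30 (adjusted p = 0.00012). The direct test of sh6 against sh1 gave 0.67 (adjusted p = 1.3e-10). HIF1AN, EGLN2, ELOB, CUL2, SIAH2 and USP20 are named here after their values were seen.

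Of 10 coactivators and relatives of CITED2, 9 were tested, of which 1 was called higher and 3 lower with sh1, and 3 higher and 3 lower with sh6, with medians of -0.001 (0.02 with median-centred libraries) and -0.03. Since 58.9% of all genes tested were called with sh1 and 67.8% with sh6, these counts do not set the list apart. With sh1 the gene called higher was KAT5 (0.17), and with sh6 NCOA3 (0.15) rose with EP300 and CREBBP while NCOA1 fell by 0.35. With median-centred or quantile-normalised libraries 2 were called lower with sh6 in place of 3. EP300 and CREBBP, the acetyltransferases for which CITED2 and HIF-1 alpha compete, were at 0.05 and 0.07 with sh1, not called (adjusted p = 0.519 and 0.386). With sh6 they rose by 0.39 and 0.61 (adjusted p = 5.4e-06 and 1.3e-09), and they were higher with sh6 than with sh1 by 0.34 and 0.55 (adjusted p = 5.4e-05 and 2.2e-08). NCOA3 fell by 0.34 with sh1. These 5 genes are named after their values were seen. CITED4, a relative that also binds these coactivators, fell by 0.89 with sh1 and by 0.19 with sh6 (adjusted p = 0.0412, with libraries that overlap the controls), and the nuclear receptor coactivator NCOA2 by 0.66 and 0.18.

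Of 14 other proteins that share PAS domains with the HIF subunits, 11 were tested. With sh1, 3 were called higher and 5 lower, and with sh6, 6 higher and 3 lower, with medians of -0.09 and 0.25. With median-centred or quantile-normalised libraries 4 were called lower with sh1 in place of 5. Beside these counts stand the 58.9% of all genes tested that were called with sh1 and the 67.8% with sh6. SIM2, a repressor that can pair with ARNT, rose by 0.56 with sh1 and 0.98 with sh6, to 331 and 461 counts, against 205 in controls. Its paralogue SIM1 fell by 0.37 and 1.08, to 460 and 258 counts, against 613. The clock proteins ARNTL2 and ARNTL, relatives of ARNT, also moved apart: ARNTL2 rose by 0.44 and 0.50 and ARNTL fell by 0.16 (adjusted p = 0.0426) and 0.40. PER1, a repressor in the clock, fell by 0.25 and 0.48. The other calls, named after their values were seen, were AHRR higher and AHR and CLOCK lower with sh1, and NPAS2, CLOCK, PER2 and PER3 higher with sh6. CLOCK, the partner of ARNTL, fell by 0.32 with sh1 and rose by 0.25 with sh6, and the direct test of sh6 against sh1 gave 0.57 (adjusted p = 1.5e-09).

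Genes that HIF is known to induce were mostly lower, a direction already known from earlier work on these values, with which the list was drawn up. Of 25 such genes, EGLN1 and EGLN3 among them, 23 were tested. With sh1, 19 were called lower and 1 higher, and with sh6, 22 lower and 1 higher, with median log2 changes of -0.46 and -0.58. With quantile-normalised libraries 18 were called lower and 2 higher with sh1, and with voom 20 lower and 1 higher. ANGPTL4, called lower with both hairpins, had mean counts of 5.63 with sh1 and 23.2 with sh6, against 43.9 in controls. With sh1 it was under the 16.2 counts of the filter on low values. Its place in these counts and medians is thus not independent of the filter. Over all genes tested, 30.0% were called lower and 29.0% higher with sh1, and 33.6% lower and 34.2% higher with sh6. The iron and stress gene NDRG1 fell by 1.38 and 1.97, the mitophagy receptor BNIP3L by 1.00 and 2.18 and the vessel growth factor VEGFA by 0.93 and 1.74. DDIT4, an inhibitor of mTORC1, fell by 0.85 and 1.40, the carbonic anhydrase CA9 by 0.33 and 1.58 and the glycolytic regulator PFKFB4 by 0.84 and 0.87. The exceptions in the main fit, named after their values were seen, were STC2, higher by 0.23 with sh1, and ENO1, higher by 0.18 with sh6. CITED2, which is also known to be induced by HIF, was higher in the same libraries.

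**Figure D5:**
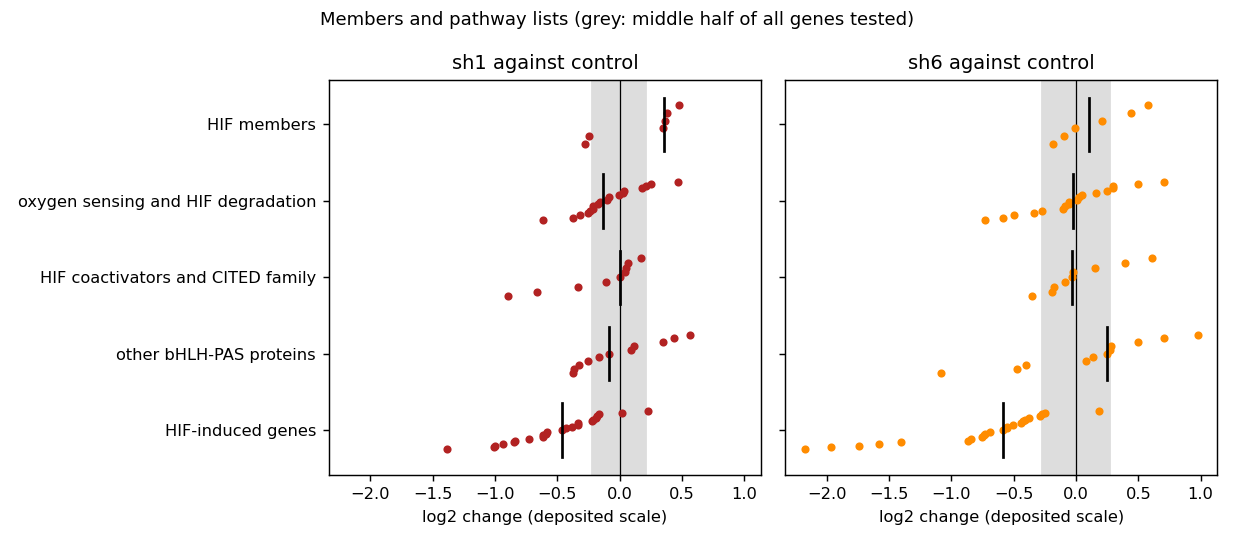
Log2 change on the deposited scale (horizontal axis) of the tested HIF members and of the tested genes of 4 pathway lists, with sh1 against control on the left and sh6 against control on the right; each point is a gene, each black line a list median, and the grey band spans the interquartile range of all genes tested. The HIF-induced genes lie mostly left of 0 (medians -0.46 and -0.58), while the members and the other lists lie on both sides.

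The genes whose pattern over the 9 libraries was closest to each member were found by the root mean square distance between their log2 values after subtracting each gene's mean, among 11430 named genes. For VHL these were the beta-secretase BACE1 and GTF3C2, a subunit of an RNA polymerase III factor, at distances of 0.036 and 0.037. For HIF1A they were the checkpoint protein RAD17 and the membrane protein TM9SF2 (0.031 and 0.032), and for ARNT the lipid phosphatase MTMR3 and the checkpoint kinase CHEK2 (0.038 and 0.040). For EPAS1 they were the transcription factor KLF13 and the exonuclease DIS3L (0.060 and 0.062), which were likewise up with sh1 (log2 changes of 0.43 and 0.35) and near 0 with sh6 (-0.06 and -0.01). For CITED2 they were EVI5L and WDTC1 (0.045 and 0.046), and for ARNT2 the zinc finger gene PRDM4 and the read-through transcript NME1-NME2 (0.053 and 0.059). These points share libraries and depth, so the distances are a description.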

How the data were processed

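Paired reads of polyadenylated RNA were processed by the authors with tools that the submitters' processing notes list as DESeq2, Salmon, STAR and cutadapt, on hg19. Versions, settings and how strand was counted are not given in the sources used here. The authors deposited log2-like values from a variance-stabilising transformation, and beside them a log2 fold change and an adjusted p-value per gene, for a comparison that the authors' deposited table leaves unnamed. The name of the table calls the values batch-corrected, and no label defines a batch. The transformation was inverted in closed form from its floor of 5.02. With the step of 1 read found per library, 76.8% to 80.5% of values between 0.5 and 20.5 reads were whole within 0.05.

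Genes with a mean at least 1 above the floor (16.2 normalised counts) were kept. The main test was limma 3.58.1 (R 4.3.3), using lmFit and a trended eBayes, two-sided, on 1 model of 3 groups over the 9 libraries, with Benjamini-Hochberg adjustment over all 13165 genes. The same fit was tested on simulated data. Within-library differences had exact permutation tests (scipy 1.17.1). Exon lengths were taken from GENCODE release 29 (GRCh38, a later build than the authors' own) and promoters from RefSeq. Intervals of changes come from the limma model and reflect the spread among libraries alone. The limit on read counts used for HIF3A covers counting error only.

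The members, lists and tests were chosen with earlier results of these data known. Named are all members, up to 6 members of each list called in 1 direction with both hairpins by size of change, and the 2 genes nearest in pattern to each called member. The antisense RNAs of HIF1A and the copy of VHL were added by name, and other exceptions are given as such. Alternatives tried were other filters, scalings, pseudocounts of 1 and 10, voom, other variance priors, sample weights, a replicate block, 2-group fits, a threshold of 0.01 and leaving out each library.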

Additional observations from a re-analysis of the deposited data

Results flagged for a closer look

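The effects of the 2 hairpins differed for 3 of the 6 tested members in the direct limma test of sh6 against sh1. Of all genes, 59.7% passed the same test, so this count does not set the members apart. EPAS1 was lower with sh6 than with sh1 by a log2 change of -0.37 (adjusted p = 5.4e-06), with all 3 sh6 libraries below all 3 sh1 libraries. ARNT was higher with sh6 by 0.16 (adjusted p = 0.0228), again in all 3 libraries. CITED2 was lower with sh6 by -0.14 (adjusted p = 0.0401), with overlapping libraries, since sh6 replicate 1 lay among those of sh1. BBOX1 itself was 1.81-fold higher with sh6 than with sh1, and its part in these differences was not tested.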

How the results depend on the processing

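Against the control, HIF1A, ARNT2, VHL and CITED2 kept their direction and their call with each hairpin in all alternatives that tested them, as did EPAS1 and ARNT with sh1. The filter at 2 above the floor removed ARNT2, which had passed the main filter only through the hairpin groups. The change of EPAS1 with sh6, -0.01, turned to 0.0149 with median-centred libraries and ran from -0.0784 (without sh6 replicate 1) to 0.0336 (without sh6 replicate 3) when 1 library was left out, with 0.0131 without sh6 replicate 2 and 0.0299 without control replicate 3, never called. HIF1A between sh6 and sh1 turned to -0.0703 with quantile normalisation, and ARNT2 ran from -0.0155 (without sh6 replicate 3) to 0.1001 (without sh6 replicate 1), neither called. The cause was not tested.

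The number of members called between sh6 and sh1 was 3, and 1 at a threshold of 0.01, with a range of 1 to 3 when 1 library was left out. The call of CITED2 there was lost without a filter (adjusted p = 0.0548), with median-centred libraries (0.0543), without a variance trend (0.0967) and without any 1 of sh1 replicates 1, 2 and 3 or sh6 replicates 2 and 3 (0.0626 to 0.198).

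No pairing by replicate number was seen in the deposited values: deviations from group means correlated at -0.13 to 0.18 for 9 pairs with the same number and at -0.18 to 0.17 for 18 other pairs. The values are named batch-corrected, and a correction for a batch shared by equal numbers would hide such pairing. Whether the libraries were paired is thus not settled. With the replicate number as a block, 7950 genes were called with sh1, 9049 with sh6, 8735 for the mean of both and 8002 between the hairpins, and no call of a member changed. Depth limits what can be said of HIF3A and of ARNT2 in controls.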
